A study of Caenorhabditis elegans with 12 samples.

Results

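The metallothionein genes mtl-1 (K11G9.6) and mtl-2 (T08G5.10), the ferritin genes ftn-1 (C54F6.14) and ftn-2 (D1037.3) and the metal transporter gene smf-3 (Y69A2AR.4) were read by gene identifier in 12 whole-worm RNA sequencing libraries of Caenorhabditis elegans. These 5 genes, of 46589 in the deposited count files, were selected on their levels in these 12 libraries, which were already known, above all the high levels of mtl-1 and ftn-1 at 22 °C. Their levels and the ratios between libraries are therefore given as a description.

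Metallothioneins are small cysteine-rich proteins that bind zinc, cadmium and copper, and ferritins are protein shells that store iron. SMF-3 is a transporter of the DMT1 family that carries iron and manganese into intestinal cells. In worms mtl-2 and ftn-1 are transcribed mainly in the intestine, under the GATA factor ELT-2. The gene mtl-1 is induced there by metals and heat, also under ELT-2, and has a constant site of expression in the pharynx. Zinc acts on mtl-1 through the nuclear receptor HIZR-1, and under low iron the hypoxia factor HIF-1 holds ftn-1 down and drives smf-3. Both mtl-1 and ftn-1 are also long-known targets of DAF-16, the transcription factor of insulin signalling, whereas ftn-2 encodes the more abundant ferritin and responds less to iron.

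Each library came from about 5000 worms at day 1 of adulthood, grown on 3 plates per strain, with 1 library for each combination of genotype and temperature. The warmer set, of 22 °C, held wild type (N2) and ung-1 mutants, and the cooler set, of 20 °C, held wild type again and nth-1 mutants. On each of these 4 backgrounds there was a library without tau, one with the tau aggregate strain BR5270 and one with the anti-aggregate strain BR5271; for the mutant alleles and the number of clones, the sources used here give nothing. As background, both tau strains express a fragment of human tau in neurons, prone to aggregate in BR5270 and altered to resist aggregation in BR5271, and UNG-1 and NTH-1 are DNA glycosylases that begin base excision repair. The series title asks about loss of these glycosylases in the tau model. Each mutant was grown at 1 temperature, so effects of the 2 mutations and of temperature on them cannot be told apart.

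Library totals ran from 15124127 to 35204808 counts. On the counts-per-million scale (CPM), after TMM scaling of library sizes, the ung-1 gene lay at 11.9 to 14.5 in the ung-1 libraries and at 39.9 to 46.6 in the wild types of 22 °C. The nth-1 gene lay at 5.06 and 5.08 CPM in nth-1 worms without tau and with aggregate tau, at 11.3 in the library labelled nth-1 anti-aggregate, and at 23.0 to 26.8 in the wild types of 20 °C, so that library went partly against its label. The titles of these 3 mutant libraries name ung-1, and the ung-1 gene lay in them at 27, 28 and 49.6 CPM (no tau, aggregate, anti-aggregate), against 37.7 to 62.3 in the wild types of 20 °C and 11.9 to 14.5 in the ung-1 libraries of 22 °C. The nth-1 libraries without tau and with aggregate tau also stood apart in tissue markers. Their body wall muscle list of 6 genes summed to 6290 and 6410 CPM, against 373 to 2290 elsewhere, and their sperm list of 8 genes to 499 and 547, against 42.1 to 156. All 10 intestine markers were detected in every library, and the list summed to between 2180 and 8820 CPM. In whole worms, fewer cells of a type and less RNA per cell cannot be told apart.

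Within each family 1 gene was abundant and steady and its partner was scarce and variable. In the per-length scale, CPM per kilobase of exon, the medians over the 12 libraries were 231 for mtl-2 and 230 for ftn-2, against 7.69 for mtl-1, 4.43 for ftn-1 and 1.4 for smf-3. The quotient of the per-length levels of mtl-2 and mtl-1 ran from 4.55 in ung-1 with aggregate tau to 253 in nth-1 without tau. For ftn-2 over ftn-1 it ran from 17.2 in ung-1 with aggregate tau to 258 in the library labelled nth-1 anti-aggregate. The highest level was 157 times the lowest for mtl-1 and 35.6 times for ftn-1, against 3.24 for mtl-2, 2.38 for ftn-2 and 3.78 for smf-3. Ranked by the SD of log2(CPM + 1) over the 12 libraries among the 15245 genes that passed the edgeR filter on low counts, mtl-1 stood at place 387 (SD 1.64) and ftn-1 at 1199 (SD 1.15). The SDs of mtl-2, ftn-2 and smf-3 were 0.47, 0.41 and 0.46, next to a median of 0.42 over all genes tested.

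**Figure D1:**
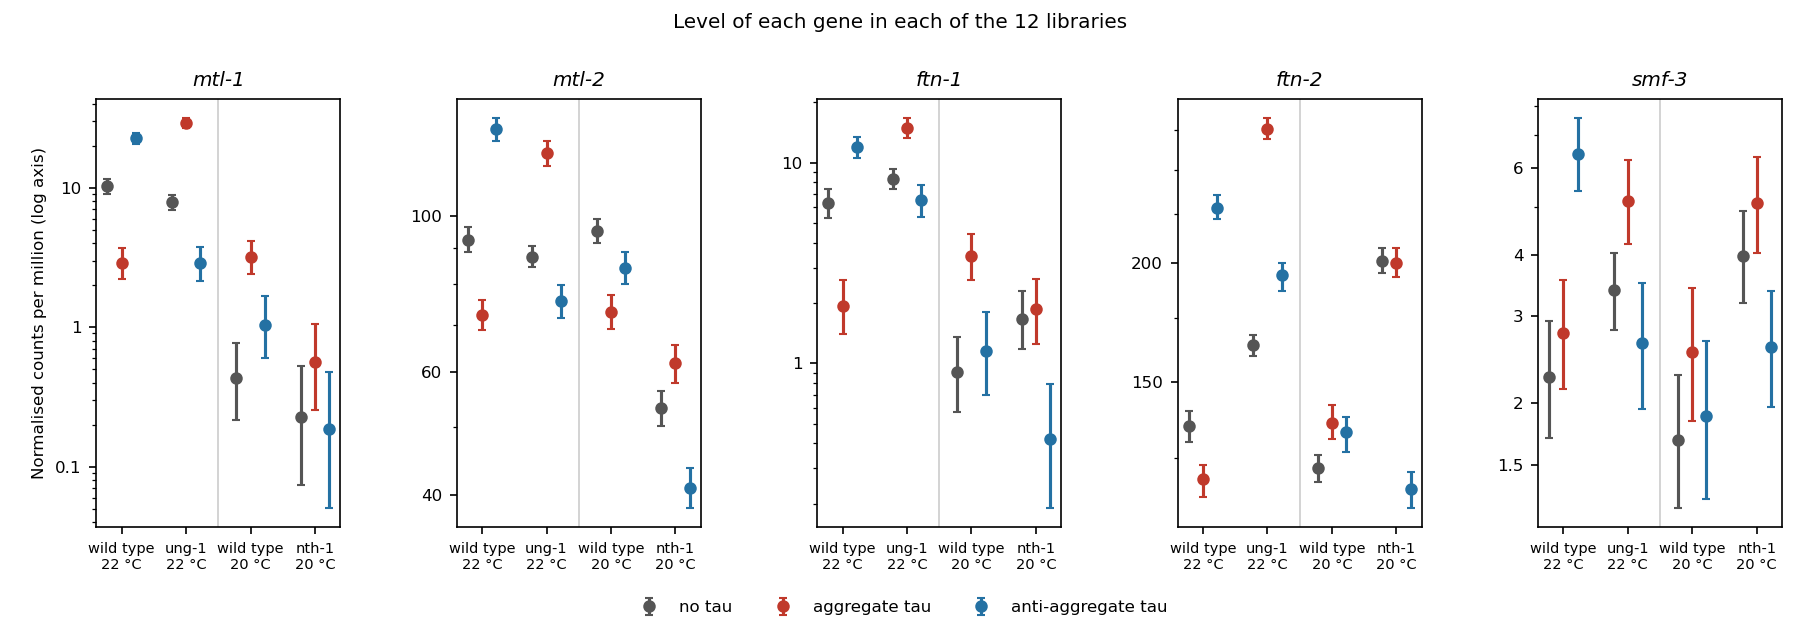
Level of each of the 5 genes in each of the 12 libraries, in TMM-normalised CPM on a log axis, by background and temperature (horizontal) and tau state (colour). Points are single libraries and bars are 95% Poisson intervals of the counts, so they cover counting error only; mtl-1 spans 0.186 to 29.1 and ftn-2 spans 116 to 276.

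The gene mtl-1 (WBcel235, chromosome V, 6691371 to 6691863, minus strand; 373 bases of exon) was read from as few as 4 and as many as 600 counts. On the wild-type background of 22 °C it stood at 10.2 CPM (95% Poisson interval 8.99 to 11.6) without tau, 2.87 (2.21 to 3.66) with aggregate tau and 22.6 (20.7 to 24.7) with anti-aggregate tau. On ung-1 it stood at 7.83 CPM (6.94 to 8.8) without tau, 29.1 (26.8 to 31.5) with aggregate tau and 2.87 (2.14 to 3.76) with anti-aggregate tau. The tau strain with the high value thus changed places between wild type and ung-1 worms of the same temperature. On the wild-type background of 20 °C mtl-1 stood at 0.433 CPM without tau, 3.19 with aggregate tau and 1.04 with anti-aggregate tau, from 11, 54 and 17 counts. On nth-1 it stood at 0.226, 0.558 and 0.186 CPM in the same order, from 5, 9 and 4 counts. The 2 highest libraries, ung-1 with aggregate tau and wild type with anti-aggregate tau at 22 °C, had intervals apart from each other and from all lower ones. The 5 lowest libraries, all of 20 °C, each had an interval that overlapped the next. Counts reached the level set by the filter, 0.458 CPM before scaling, in all 6 libraries of 22 °C and in 3 of the 6 of 20 °C.

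The gene mtl-2 (V, 14018270 to 14018673, minus strand; 347 bases of exon) differed far less between the temperatures. Its CPM without tau, with aggregate and with anti-aggregate tau were 92.5, 72.4 and 133 in wild type at 22 °C and 87.6, 123 and 75.7 in ung-1. At 20 °C they were 95.3, 73.0 and 84.4 in wild type and 53.2, 61.7 and 41.0 in nth-1. The 3 nth-1 libraries were the lowest of the 12, with intervals apart from one another and from the next library. The share of all genes with this order is not given here. Of all genes tested, 15.1% were as far below wild type of 20 °C as mtl-2 in nth-1 without tau. With aggregate tau 34.1% were, and with anti-aggregate tau 0.558%. The 2 libraries highest in mtl-1 were highest in mtl-2 as well, in the other order, and their mtl-2 intervals overlapped. Aggregate tau had less mtl-2 than no tau on both wild-type backgrounds (0.782 and 0.767 times). It had more on both mutants (1.41 times on ung-1, 1.16 times on nth-1). All 4 of these intervals left out 1, and they cover counting error only. In wild type at 22 °C 23.4% of all genes tested were as far below no tau as mtl-2, with a larger share at 20 °C. As far above it were 11.6% on ung-1 and 21.4% on nth-1. The share of all genes with this split between wild types and mutants is not given here.

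The iron-storage gene ftn-1 (V, 7546468 to 7547579, minus strand; 606 bases of exon) had levels ordered much as those of mtl-1. In wild type at 22 °C it stood at 6.28 CPM (5.33 to 7.36) without tau, 1.94 (1.41 to 2.61) with aggregate tau and 12 (10.6 to 13.5) with anti-aggregate tau. In ung-1 the values were 8.3 (7.38 to 9.3), 14.9 (13.3 to 16.7) and 6.5 (5.38 to 7.79). At 20 °C they were 0.906, 3.42 and 1.16 CPM in wild type and 1.67, 1.86 and 0.418 in nth-1, from 58 counts or fewer in each library. Of the 11 neighbouring pairs in the order of levels, 9 had overlapping intervals. The 2 gaps lay below the 2 highest libraries and between the 5 highest, all of 22 °C, and the rest.

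The second ferritin gene ftn-2 (I, 3680180 to 3680927, minus strand; 651 bases of exon) stood at 135, 119 and 228 CPM in wild type at 22 °C and at 164, 276 and 194 in ung-1. At 20 °C its levels were 122, 136 and 133 CPM in wild type and 201, 200 and 116 in nth-1. High libraries were therefore found at both temperatures, among them the nth-1 libraries without tau and with aggregate tau that stood apart in muscle and sperm markers. The library labelled nth-1 anti-aggregate was the lowest of all 12, within the interval of wild type with aggregate tau at 22 °C.

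The transporter gene smf-3 (IV, 2618869 to 2625503, plus strand; 1942 bases of exon) stood at 2.26, 2.78 and 6.4 CPM in wild type at 22 °C and at 3.39, 5.14 and 2.65 in ung-1. In wild type at 20 °C it stood at 1.69, 2.54 and 1.89 CPM, and in nth-1 at 3.97, 5.08 and 2.6. Its counts, 31 to 138 a library, left the intervals of all 11 neighbouring pairs overlapping. The lowest 3 libraries were all of wild type without aggregate tau, and the top 3 were wild type with anti-aggregate tau at 22 °C and the 2 mutants with aggregate tau.

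At 22 °C all 5 genes shared the tau state with the highest level within each background, and that state differed between the backgrounds. In wild type the anti-aggregate library was the highest of the 3 for 5 of 5 genes, as it was for 23.4% of all genes tested. In ung-1 the aggregate library was the highest for 5 of 5 genes, against 36.5% of all genes tested. In wild type the aggregate library was the lowest for 4 of the 5, with smf-3 the exception, beside 36.1% of all genes, and in ung-1 the anti-aggregate library was the lowest for 4, with ftn-2 the exception, beside 27.7%. In wild type at 20 °C the aggregate library was the highest for 4 of the 5, all but mtl-2, beside 57.4% of all genes. In nth-1 the anti-aggregate library was the lowest for 5 of 5, as it was for 53.5% of all genes. The intestine list moved in the same directions for the high values at 22 °C, at 2770, 4140 and 6950 CPM in wild type and 3460, 8820 and 5700 in ung-1 (no tau, aggregate, anti-aggregate), and its part in the levels was not tested.

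Ratios to that list, chosen after the levels were seen, changed some of these differences. Per 1000 CPM of the intestine list, mtl-1 in wild type at 22 °C stood at 3.69 without tau, 0.692 with aggregate and 3.26 with anti-aggregate tau, so the anti-aggregate value was no longer the highest of the 3. In ung-1 the same ratio was 2.26, 3.3 and 0.503. For ftn-1 it was 2.27, 0.469 and 1.72 in wild type and 2.4, 1.69 and 1.14 in ung-1, so on both backgrounds the library without tau was then the highest. On this ratio smf-3 ran from 0.464 to 1.06 over the 12 libraries and ftn-2 from 28.7 to 56.0. The range of mtl-2, 10.4 to 43.7, was wider in fold than that of its CPM, and was highest in wild type without tau at 20 °C. For ftn-1 the ratio ran from 0.17 to 2.4, and for mtl-1 still from 0.0443 to 3.69.

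**Figure D2:**
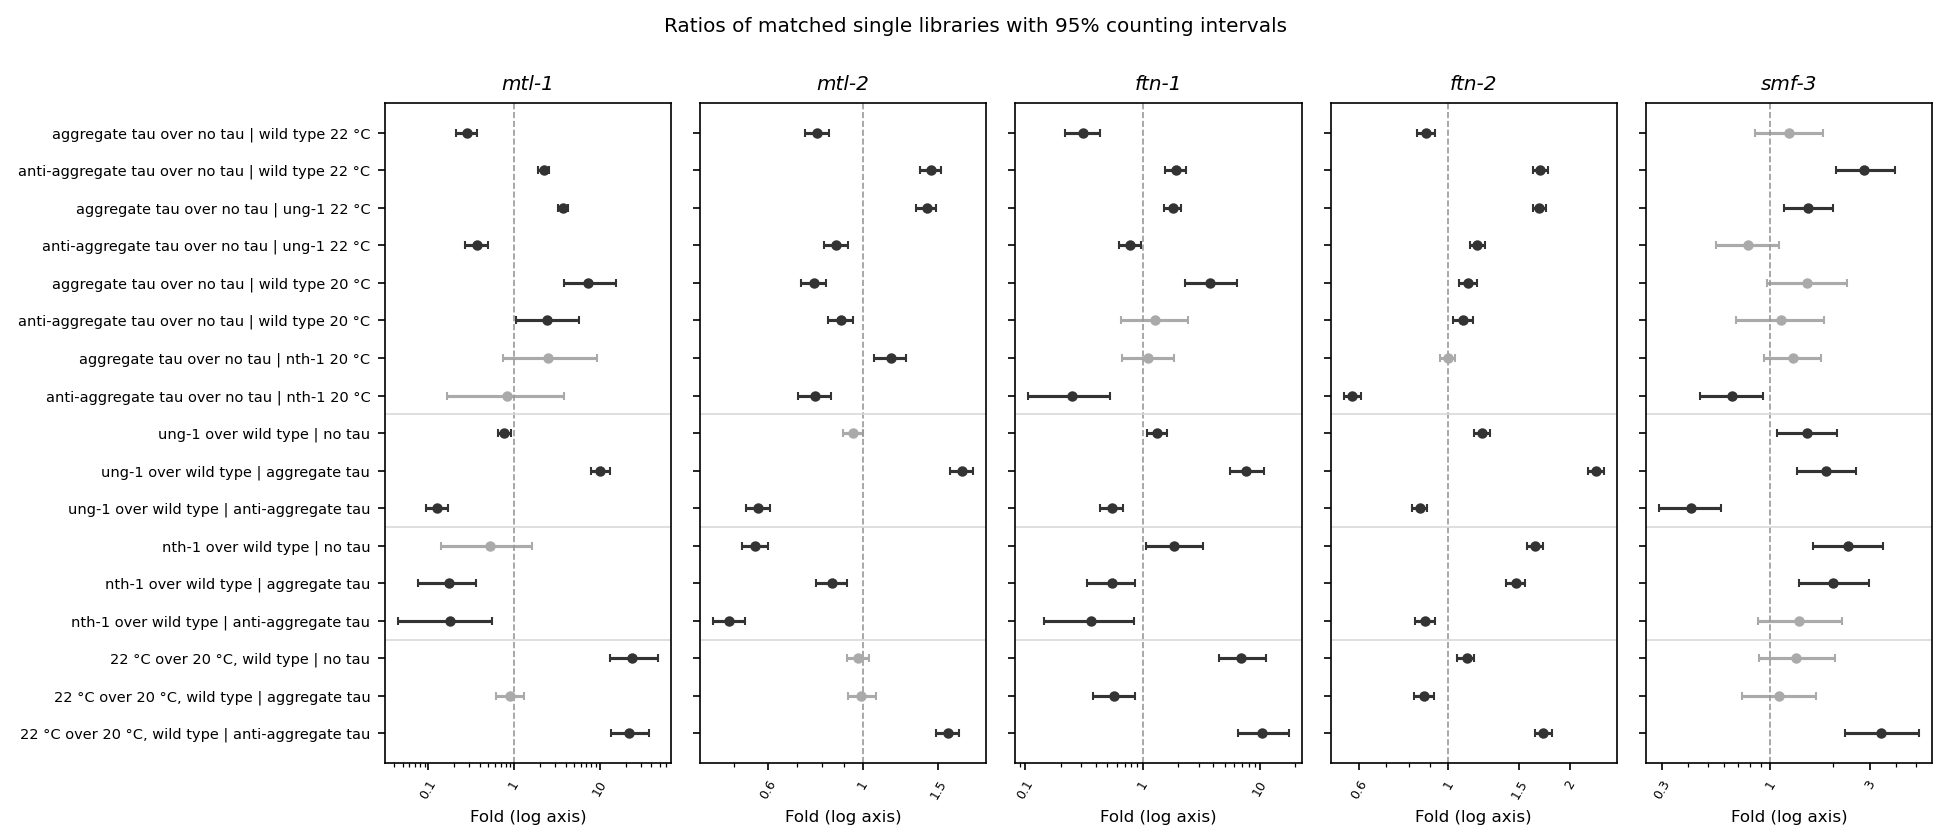
Fold between matched single libraries (log axis) for each of the 5 genes, with 95% intervals from the exact conditional binomial distribution that cover counting error only; grey points have intervals that hold 1. For mtl-1 and ftn-1 the ratio of ung-1 over wild type lies above 1 with aggregate tau (10.2 and 7.67) and below 1 with anti-aggregate tau (0.127 and 0.544).

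The comparison of mutant with wild type inside the tau strains asked what the loss of a glycosylase changed in worms with tau. With aggregate tau at 22 °C, ung-1 over wild type was 10.2-fold for mtl-1 (95% interval 7.85 to 13.3) and 7.67-fold for ftn-1 (5.58 to 10.8). In the ranking of all 15245 tested genes by the log2(CPM + 1) difference between these 2 libraries, mtl-1 was at place 2 and ftn-1 at place 12. The other 3 genes were also higher in ung-1, ftn-2 by 2.32-fold, smf-3 by 1.85-fold and mtl-2 by 1.7-fold. With anti-aggregate tau the same ratio was 0.127 for mtl-1 (0.0933 to 0.169), place 14 among the genes lower in ung-1, and lay between 0.413 and 0.85 for the other 4. Without tau it lay between 0.766 and 1.5 for all 5. The large ratios of mtl-1 and ftn-1 thus came from pairs with tau, and each rests on 1 library a side.

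At 20 °C the matched ratios of nth-1 over wild type did not follow those of ung-1. For mtl-1 all 3 were below 1 (0.521 without tau, 0.175 with aggregate, 0.18 with anti-aggregate tau), with the interval of the first holding 1. For mtl-2 they were 0.558, 0.844 and 0.486, with all 3 intervals below 1. The ferritin ftn-1 was at 1.85, 0.543 and 0.361 and ftn-2 at 1.64, 1.47 and 0.875. The transporter smf-3 was higher in all 3 pairs (2.35, 2.0 and 1.38), with the last interval holding 1. Many genes moved as far between these libraries. Of all genes tested, 31.9%, 19.8% and 24.4% were as far above wild type as smf-3, in the same order of pairs. As far in the direction of ftn-1 were 43.0%, 16.5% and 6.98%, and of ftn-2 36.3%, 26.8% and 29.4%. As far below as mtl-1 were 34.1%, 4.32% and 2.56%. The muscle and sperm lists moved with the first 2 of these pairs, and their part was not tested.

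Over both glycosylases together within aggregate tau, edgeR's quasi-likelihood test called 0 of the 5 genes, beside 0.984% of the 15245 genes tested (150 genes). DESeq2 called 0 of the 5 as well, beside 4.41% of the genes to which it gave an adjusted p. The fitted log2 fold change was 0.87 for ftn-2 (SE 0.3, Benjamini-Hochberg adjusted p = 0.349) and 0.92 for smf-3 (SE 0.54, adjusted p = 0.685), with both pairs on the same side for each. It was -0.22 for mtl-1 (SE 1.1), since the 22 °C pair went up and the 20 °C pair down. Of the 5, only ftn-2 had an unadjusted p under 0.05. Tested over the 3 tau states, 0 of 5 were called for ung-1 over wild type, beside 0% of all genes, with 0 of the 5 at an unadjusted p under 0.05. For nth-1 over wild type 0 of 5 were called as well, beside 0% of all genes. There the log2 value of mtl-2 was -0.7 (SE 0.28, edgeR adjusted p = 0.111, unadjusted p under 0.05), and that of mtl-1 was -2.05 (SE 1.01, adjusted p = 0.17). DESeq2 called 0 of the 5 in both, beside 0.0394% of its genes for ung-1 and 29.7% for nth-1. Without the library labelled nth-1 anti-aggregate the 2 values were -0.52 and -1.86, and that of ftn-1 turned from -0.4 to 0.09.

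Aggregate tau was compared with no tau to ask what the aggregating fragment changes. For mtl-1 the aggregate library was at 0.281 of the library without tau in wild type at 22 °C (0.21 to 0.37) but at 7.36-fold in wild type at 20 °C (3.8 to 15.6). For ftn-1 these ratios were 0.309 (0.216 to 0.435) and 3.78 (2.3 to 6.42). On ung-1 the ratio was 3.72 for mtl-1 and 1.8 for ftn-1, and on nth-1 2.47 and 1.11 with both intervals holding 1. The aggregate libraries of the 2 wild types held similar levels of mtl-1 (2.87 and 3.19 CPM), and for this gene it was the libraries without tau that differed. At 22 °C the wild-type pair ranked mtl-1 at place 19 and ftn-1 at place 47 among the genes lower with aggregate tau. In wild type at 20 °C mtl-1 was at place 1522 and ftn-1 at place 2524 among the genes higher with aggregate tau. On ung-1 these places were 72 and 873, and on nth-1 1655 and 5188. By place, the rises in wild type at 20 °C were less extreme than the falls at 22 °C. These places use log2(CPM + 1), which shrinks ratios at levels below 1 CPM, as without tau at 20 °C. For mtl-1 the log2 ratio of 2.88 at 20 °C became a difference of 1.55, and that of -1.83 at 22 °C became -1.54. Without the added 1, the rise of mtl-1 was thus larger than its fall. Over 4 backgrounds the fitted log2 fold change was 1.54 for mtl-1 (SE 0.85, edgeR adjusted p = 0.363), 0.58 for ftn-1 (SE 0.7), 0.47 for smf-3 (SE 0.44), 0.2 for ftn-2 (SE 0.26) and 0.03 for mtl-2 (SE 0.24). Here 0 of 5 passed, beside 0% of all genes tested; the median over all tested genes was 0.26.

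On wild-type backgrounds alone 0 of 5 passed, beside 1.51% of all genes, and the median of all genes was 0.46. That median was 0.67 with total counts in place of TMM, so values near it are read relative to it. The log2 fold change of mtl-1 in this comparison, 1.04 (SE 1.25), became -1.8 without the aggregate library of 20 °C and 2.84 without that of 22 °C. That of ftn-1, 0.56 (SE 1.05), became -1.83 and 2.06. On mutant backgrounds 0 of 5 passed, beside 0% of all genes, with mtl-1 at 1.66 (SE 1.12). In the test of the difference of the aggregate effect between mutant and wild-type backgrounds 0 of 5 passed, beside 0.0131% of all genes. There mtl-2 had a log2 difference of 0.72 (SE 0.29, adjusted p = 0.422, unadjusted p under 0.05), against a median over all genes of -0.33. In these 4 comparisons DESeq2 called 0 of the 5, beside 0.398% of its genes over 4 backgrounds, 24% on wild type, 0% on mutants and 2.95% for the difference. By edgeR only mtl-2, in the last, had an unadjusted p under 0.05.

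For anti-aggregate tau against no tau, which shares the libraries without tau with the comparison above, the matched ratios of mtl-1 were 2.21 in wild type at 22 °C, 0.366 in ung-1, 2.39 in wild type at 20 °C and 0.824 in nth-1. The interval of the last held 1. For smf-3 they were 2.83, 0.781, 1.12 and 0.655 in the same order. Over the 4 backgrounds the test called 0 of 5, beside 0% of all genes, by edgeR and 0 by DESeq2, beside 0.232% of its genes, with 0 at an unadjusted p under 0.05 and fitted log2 fold changes between -0.09 for ftn-1 and 0.4 for mtl-1 (edgeR adjusted p = 0.997 for each).

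**Figure D3:**
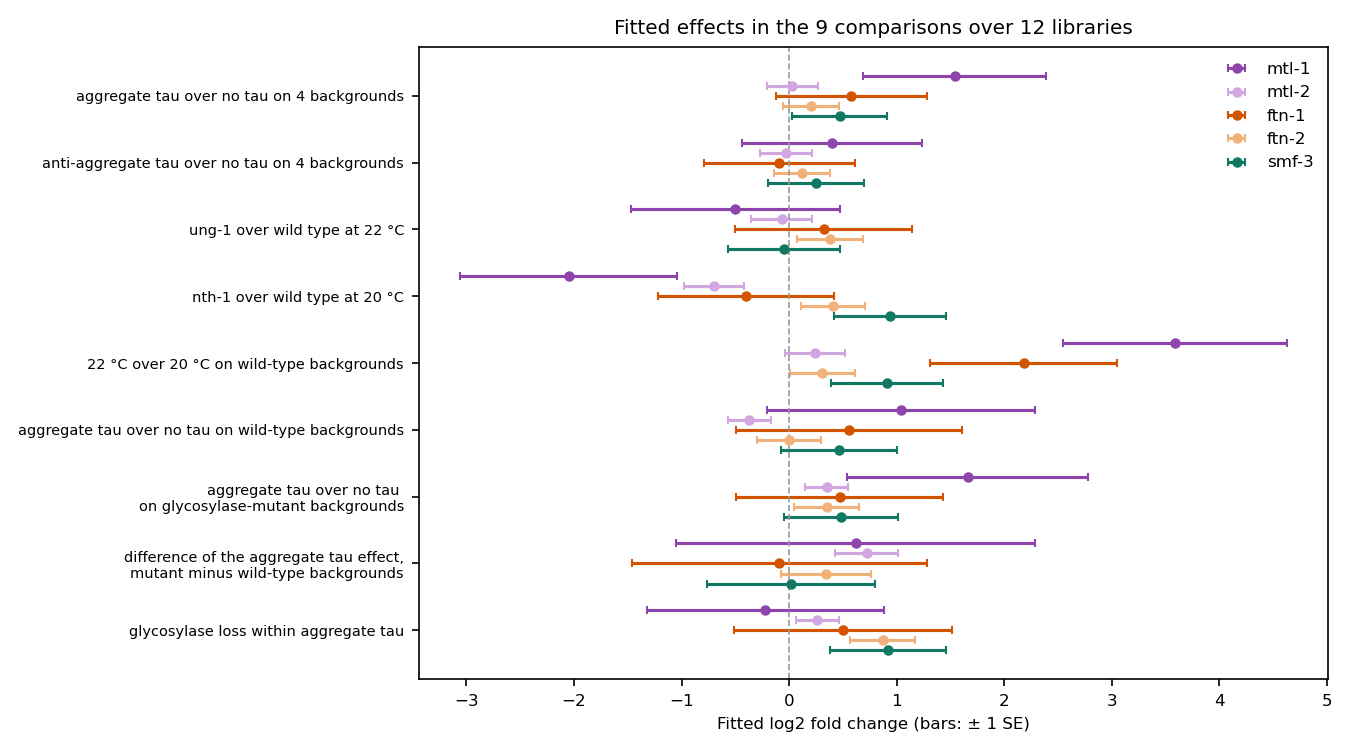
Fitted log2 fold change of each gene (colour) in each of the 9 comparisons, from edgeR fits of all 12 libraries; bars are ± 1 SE. The value farthest from 0 is that of mtl-1 for 22 °C over 20 °C, 3.59 with an SE of 1.04, and none of the 45 values passed the adjusted threshold.

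Growth at 22 °C against 20 °C, which in this series also separates the sets of libraries, showed the highest ratios of mtl-1 and ftn-1. The 5 genes were selected above all on these levels. The ratios, places and p-values of this comparison are therefore a description and no independent test. Over the 6 libraries of each temperature mtl-1 ran from 2.87 to 29.1 CPM with a median of 9.02 at 22 °C and from 0.186 to 3.19 with a median of 0.495 at 20 °C, a fold of medians of 18.2. For ftn-1 the range was 1.94 to 14.9 (median 7.4) against 0.418 to 3.42 (median 1.41), a fold of 5.23. In both genes the groups overlapped. Above every library of 20 °C stood 4 of the 6 libraries of 22 °C in mtl-1 and 5 of 6 in ftn-1, and the aggregate library of wild type was among the exceptions in both. Groups without overlap were found for 0 of the 5 genes, beside 1.74% of all genes tested (266 genes, 229 of them higher at 22 °C). By the difference of mean log2(CPM + 1) between the 2 temperatures mtl-1 was at place 13 and ftn-1 at place 48 of 15245, and the folds of medians of mtl-2, ftn-2 and smf-3 were 1.34, 1.33 and 1.2.

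On wild type the ratio of 22 °C over 20 °C for mtl-1 was 23.6 without tau (13 to 47.9), 21.9 with anti-aggregate tau (13.5 to 37.8) and 0.9 with aggregate tau (0.618 to 1.32). For ftn-1 it was 6.94 (4.46 to 11.3), 10.3 (6.49 to 17.5) and 0.567 (0.374 to 0.854). The pair without tau put mtl-1 at place 6 of all tested genes. With aggregate tau neither gene was higher at 22 °C. The fitted log2 fold change over the 3 tau states was 3.59 for mtl-1 (SE 1.04, edgeR adjusted p = 0.575) and 2.18 for ftn-1 (SE 0.87, adjusted p = 0.65), both with an unadjusted p under 0.05. By edgeR 0 of 5 passed, beside 0% of all genes tested. DESeq2 called mtl-1 (adjusted p = 0.0155) and none of the other 4, beside 0.669% of the genes to which it gave an adjusted p (147 genes). That call used the same levels that mtl-1 was selected on. Over 17 alternatives the adjusted p of mtl-1 ran from 0.0155 to 1.0 and its log2 fold change from 2.28 to 4.44. Leaving out the wild-type anti-aggregate library of 22 °C gave the lowest value for mtl-1 and took that of ftn-1 to 0.96.

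The yolk list of 6 vitellogenin genes, which are made in the intestine for transport to oocytes, split the libraries in a similar way. It summed to 99800, 48300 and 103000 CPM in wild type at 22 °C (no tau, aggregate, anti-aggregate), to 89700, 148000 and 124000 in ung-1, and to between 40300 and 53000 in the 6 libraries of 20 °C. The wild-type aggregate library of 22 °C lay with those of 20 °C in the yolk list and in ftn-1, and near the highest of them in mtl-1. The ung-1 anti-aggregate library was second in the yolk list but had 2.87 CPM of mtl-1. Both wild-type aggregate libraries also had the lowest germline lists, at 3330 and 3380 CPM against 3540 to 6310 elsewhere. The pharynx list of 6 genes, of interest for mtl-1, was highest in nth-1 without tau and with aggregate tau, at 92.0 and 102 CPM, against 12.2 to 32.7 elsewhere. What part these tissues have in the levels was not tested. Per 1000 CPM of the intestine list the temperature groups still overlapped in mtl-1, at 0.503 to 3.69 against 0.0443 to 0.818, and in ftn-1, at 0.469 to 2.4 against 0.17 to 0.878.

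**Figure D4:**
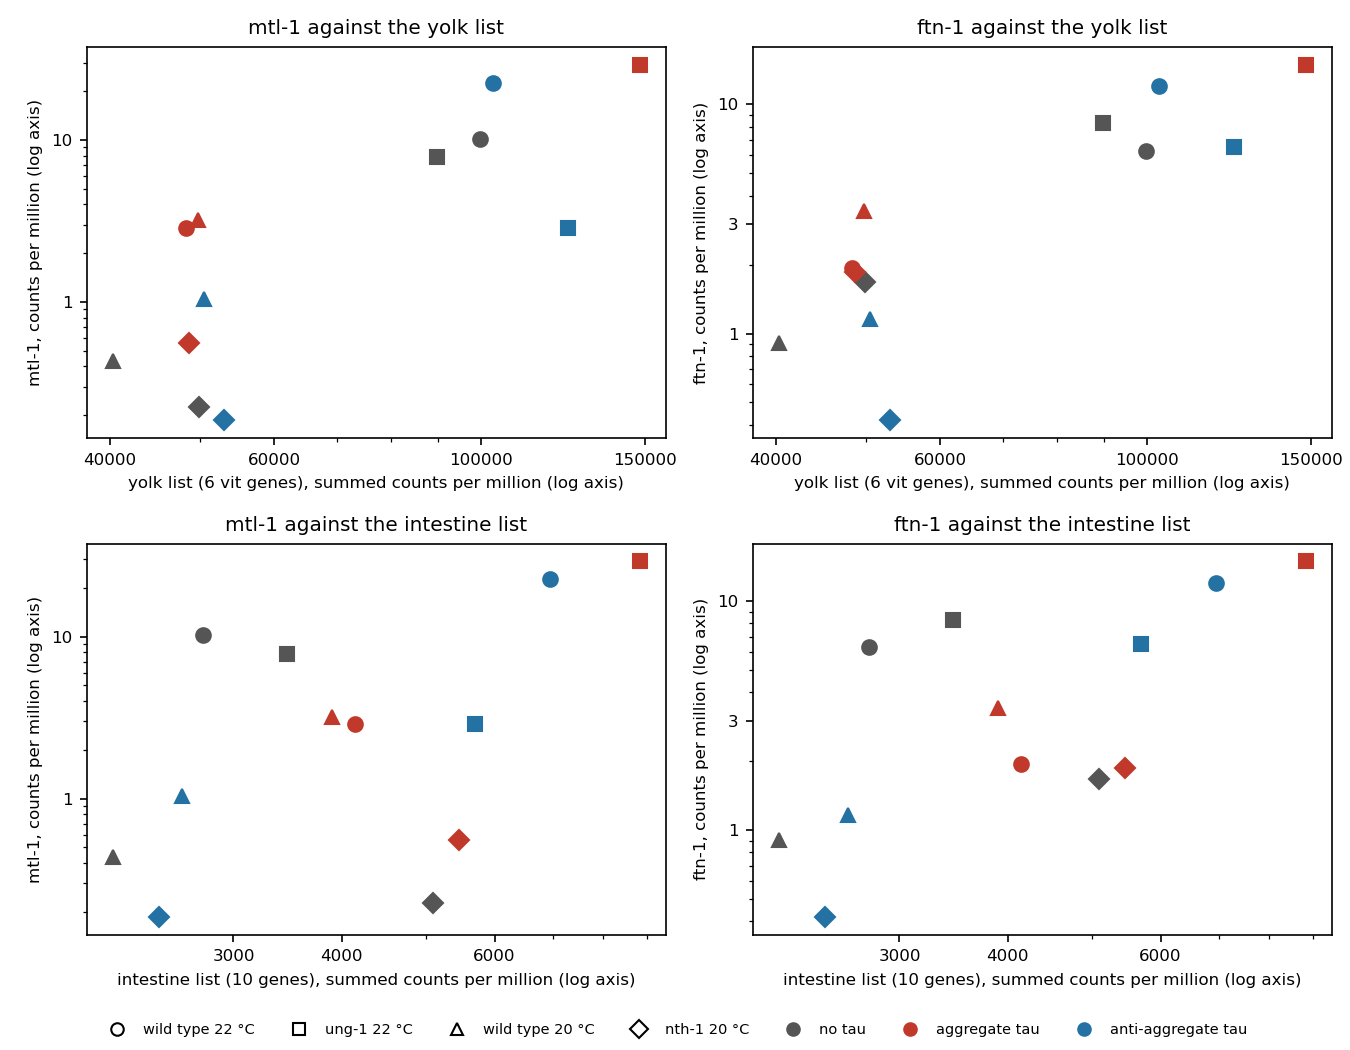
Level of mtl-1 (left) and ftn-1 (right) against the summed level of the yolk list (top) and of the intestine list (bottom) in each of the 12 libraries, all in TMM-normalised CPM on log axes; symbols give the background and colours the tau state. Libraries with a yolk list of 89700 or more are all of 22 °C, and the nth-1 libraries without tau and with aggregate tau are low in mtl-1 at intestine lists of 5100 and 5460.

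Between the 5 genes the distances depend on the size of each gene's spread as well as on its order of libraries. A variable gene therefore lies far from its steady family partner even where the order is the same. Measured as the root mean square difference of log2(CPM + 1) after centring over the 12 libraries, ftn-2 and smf-3 differed least (0.24), followed by mtl-2 with ftn-2 (0.46) and with smf-3 (0.55). The last 2 distances are larger than those of ftn-2 (0.4) and smf-3 (0.44) from their own means. Low spread alone can keep such distances small, so they do not tell whether the order of libraries is shared. The variable genes mtl-1 and ftn-1 differed from each other by 0.66, less than mtl-1 and its family partner mtl-2 (1.23) or ftn-1 and ftn-2 (0.88). The 2 genes lay on the same side of their medians in 10 of 12 libraries for ftn-2 with smf-3 and for mtl-1 with ftn-1, and in 6 of 12 for mtl-2 with either ftn-2 or smf-3. For mtl-1 with mtl-2 and for ftn-1 with ftn-2 it was 8 of 12. All 12 libraries share their depth and makeup between genes, and no test was made.

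**Figure D5:**
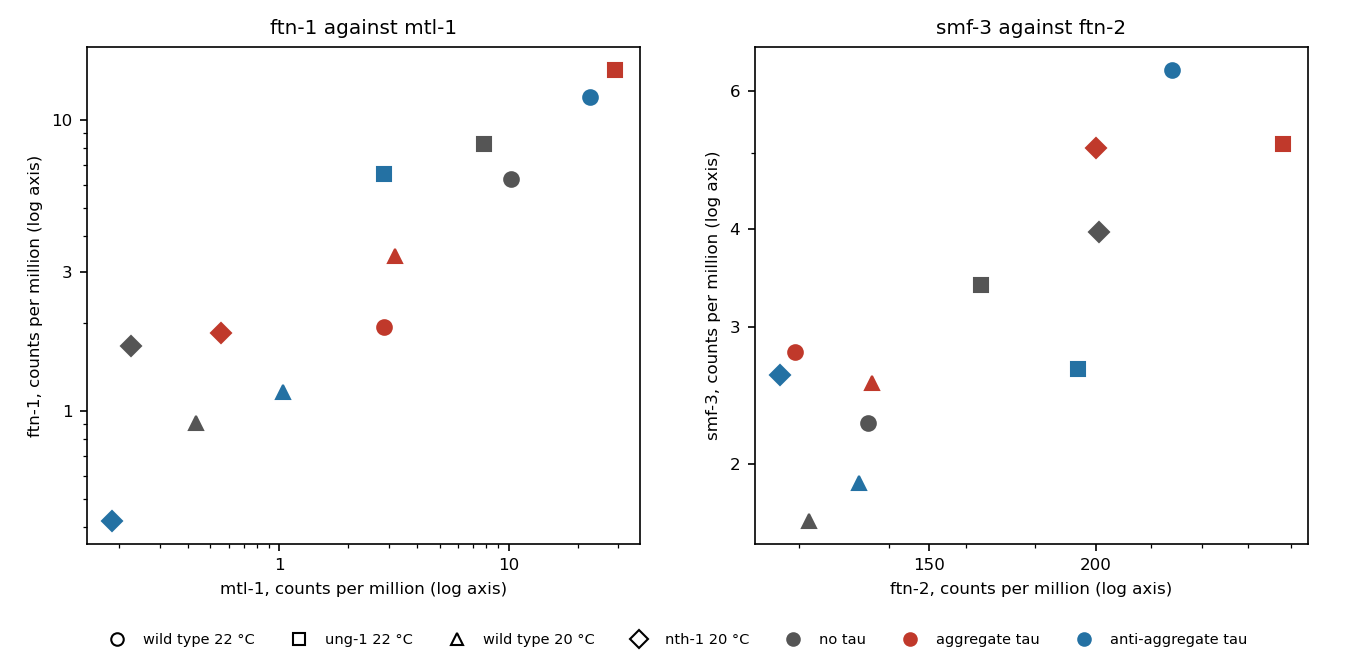
Level of ftn-1 against mtl-1 (left) and of smf-3 against ftn-2 (right) in each of the 12 libraries, in TMM-normalised CPM on log axes, with symbols for the background and colours for the tau state. In both panels ung-1 with aggregate tau and wild type with anti-aggregate tau at 22 °C are at the upper right, at 14.9 and 12 CPM of ftn-1.

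By the same measure over 5676 named genes whose mean reached 5 CPM, the gene nearest to mtl-1 was lipl-2 (0.63), of the lysosomal lipase family, followed by the acid sphingomyelinase gene asm-3 (0.66) and math-45 (0.66). The distance of mtl-1 from its own mean was 1.57. Nearest to ftn-1 were lgmn-1 (0.37), ttm-2 (0.39) and the glucuronosyltransferase family gene ugt-44 (0.42). Next to mtl-2 stood serp-1.2 (0.21), ostf-4 (0.21) and the autophagy gene lgg-1 (0.22). For ftn-2 the nearest were lron-7 (0.13), the trehalase gene tre-3 (0.13) and the acyl-CoA synthetase gene acs-14 (0.15), and for smf-3 dhs-14 (0.16), lron-7 (0.19) and the Lon protease gene lonp-2 (0.19). With a pseudocount of 5 in place of 1 only 6 of these 15 places held the same gene for the same member.

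Other genes of metal handling were read from 6 lists of 65 genes, of which 59 passed the filter; not tested were smf-2, fpn-1.3, cdr-3, cdr-5, numr-1 and numr-2. By edgeR 0 of 59 rose and 0 fell in each of the 9 comparisons, and groups without overlap between the temperatures were found for 0 of 59. For 22 °C over 20 °C 5 of the 59 (8.47%) had an unadjusted p under 0.05, beside 7.52% of all genes, and 31 a positive log2 fold change (median 0.04, beside 0.03 over all genes). For nth-1 over wild type 19 (32.2%) had an unadjusted p under 0.05, beside 36.6% of all genes, and 35 a positive value (median 0.23, beside 0.17). There DESeq2 called 15, 26.3% of those to which it gave an adjusted p, beside its 29.7% over all genes. For aggregate tau on wild-type backgrounds 18 (30.5%) had an unadjusted p under 0.05, beside 33.5% of all genes, with a median of 0.22 beside 0.46, and DESeq2 called 9 (15.8%, beside 24%). Within aggregate tau, loss of a glycosylase gave a positive value in 42 of 59 (median 0.13, beside 0.0), 7 (11.9%) at an unadjusted p under 0.05, beside 10.4% of all genes, and 3 called by DESeq2 (5.26%, beside 4.41%). In the difference of the aggregate effect 8 (13.6%) had an unadjusted p under 0.05, beside 11.7% of all genes, and DESeq2 called 1 (1.79%, beside 2.95%). In the other 4 comparisons 0 to 4 had such a p, beside 0.394% to 12.3% of all genes, and DESeq2 called 0, as it did for temperature.

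The most abundant genes of these lists were steady next to mtl-1. Among iron genes the mitochondrial iron importer gene mfn-1 ran from 49.0 to 74.3 CPM and the cysteine desulphurase gene nfs-1, of iron-sulphur cluster assembly, from 57.0 to 86.0. The aconitase gene aco-1, related to the iron regulatory proteins of mammals, ran from 84.1 to 279 CPM, and the stress response factor gene skn-1 from 119 to 209. For heme, the exporter gene mrp-5 ran from 84.7 to 141 CPM and the secreted protease gene hrg-7 from 39.8 to 101. The zinc transporter genes zipt-1 and zipt-2.4 ran from 62.6 to 196 and from 59.9 to 132 CPM. The copper genes sod-1, for superoxide dismutase, and cua-1, for a copper-transporting ATPase, ran from 155 to 238 and from 107 to 139. Of the heavy metal genes, hmt-1 ran from 57.2 to 85.4 CPM and mrp-1, highest in nth-1 without tau, from 17.9 to 79.7.

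Genes tied to the regulation of the 5, named for their known roles or after their values were seen, varied less than mtl-1. The zinc transporter gene cdf-2, activated by HIZR-1 as mtl-1 is, was highest in the 2 libraries that were highest in mtl-1, at 13.7 CPM in wild type with anti-aggregate tau and 13.1 in ung-1 with aggregate tau at 22 °C. It stood at 1.18 to 7.0 CPM in the others, and the 7.0 was that of nth-1 with aggregate tau, where mtl-1 was at 0.558. For 22 °C over 20 °C its log2 value was 1.82 (SE 0.79, edgeR adjusted p = 0.658). The gene hizr-1 itself ran from 2.21 to 6.36 CPM and ttm-1, another of its targets, from 16 to 30.5. The gene pqm-1, whose product acts opposite to DAF-16, ran from 11.4 to 68.8 CPM, with its 2 highest levels, 68.8 and 65.3, in the 2 libraries highest in mtl-1. The gene elt-2 ran from 5.43 to 18.2 CPM and was highest in nth-1 without tau, where mtl-1 was at 0.226. It stood at 14.3 and 13.5 in the 2 libraries highest in mtl-1, and at 13.4 in nth-1 with aggregate tau. The genes daf-16 and hif-1 ran from 126 to 191 and from 62.1 to 191 CPM, both highest in nth-1 with aggregate tau.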

How the data were processed

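Whole-worm RNA sequencing counts of 12 libraries were used, 1 file per library. The deposited values were read counts per gene, whole numbers with different totals, not normalised by the authors as far as the values show. Reads were aligned with HISAT2 to WBcel235 and edgeR 3.22.5 was used, per the submitters' processing notes; on the counter, its use of strand and the annotation the sources used here say nothing. Groups came from the genotype and temperature labels. For the 3 mutant libraries of 20 °C the title names ung-1 but the genotype label, which was followed, names nth-1. The 5 genes, the gene lists and the tests were chosen with earlier results of these data known. Names and positions came from Ensembl 115, which matched 46180 of 46589 identifiers and all 5 genes; the unmatched held 0.228% of the counts, and no annotated gene overlapped any of the 5.

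The test across genes was that of edgeR 4.0.16 under R 4.3.3 (quasi-likelihood test, TMM scaling, default filter on low counts, Benjamini-Hochberg threshold of 0.05 over 15245 genes) in 2 fits of all 12 libraries, with background and tau state (6 residual degrees of freedom) and with a term for glycosylase loss by tau state added (4). With 1 library per combination, the spread behind each p-value is how far tau effects vary between backgrounds, together with the noise of single libraries, and no replicate culture was measured. Levels are TMM-normalised CPM with 95% Poisson intervals; differences and distances used log2(CPM + 1). The test was tried on simulated counts first. Named beside the 5 genes were the 2 most abundant genes of each metal list, any list gene past the threshold, and the 3 genes nearest in pattern to each of the 5; others are said to be chosen otherwise. Alternatives were DESeq2 1.42.0, other size factors, total counts, no filter, other pseudocounts, coding length and leaving out libraries. The overlap of temperature sets, ratios to the intestine list and places among all genes were added after the data were seen.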

Additional observations from a re-analysis of the deposited data

Results flagged for a closer look

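In mtl-1, anti-aggregate tau was above no tau on both wild-type backgrounds and below it on both mutant backgrounds, and the mean log2 ratios differed by 2.07 between wild type and mutants. The same split was seen in ftn-1, with a difference of 1.82, and in smf-3, with 1.31. These 3 differences were not tested, they come from 40 looks for flagged results, and the share of all genes with this split is not given here. The nth-1 side rests on the library labelled nth-1 anti-aggregate, which went partly against its label. It was the lowest of its background for 53.5% of all genes tested. The differences include pairs whose intervals held 1: nth-1 in mtl-1, wild type of 20 °C in ftn-1, and ung-1 and wild type of 20 °C in smf-3.

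In mtl-2, aggregate tau was below no tau on both wild-type backgrounds and above it on both mutants, with a difference of mean log2 ratios of -0.72 for wild type against mutants. The fitted difference, mutant minus wild type, was 0.72 (SE 0.29, edgeR adjusted p = 0.422).

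Among the 4 libraries without tau, nth-1 at 53.2 CPM of mtl-2 stood apart from the other 3, at 87.6 to 95.3. On a log2 scale the gap was 0.856 of the whole range, above the cut of 0.829. On the CPM scale itself the gap falls below that cut. In all, 15 groups of 4 libraries were looked at in this way. The cut flags about 1 in 20 groups drawn from 1 population. The 4 libraries of a group differ in background and temperature, so that rate need not hold here.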

How the results depend on the processing

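By edgeR the 5 genes stayed without a call in all 9 comparisons under every alternative, and DESeq2 called 1 of them, mtl-1 for 22 °C over 20 °C. That call reuses the levels that mtl-1 was selected on. The number of metal-list genes called, 0 in each comparison, became 7 with total counts and 15 by DESeq2 for nth-1 over wild type, and ran from 0 to 21 with 1 library left out. For aggregate tau on wild-type backgrounds it became 1 with total counts, 9 by DESeq2 and 12 without the 3 nth-1 libraries, and ran from 0 to 21. For the difference of the aggregate effect DESeq2 gave 1 and leaving out libraries 0 to 1, and for glycosylase loss within aggregate tau total counts gave 2, DESeq2 3 and leaving out libraries 0 to 3. The highest of these counts came without an anti-aggregate library on a mutant background. Over all genes, the 230 called for aggregate tau on wild type became 347, 3254 and 3811 with total counts, DESeq2 and without the 3 nth-1 libraries (1 to 5515 with 1 library left out). The 150 within aggregate tau became 317 and 636 with total counts and DESeq2 (0 to 508), and the 2 of the difference 23 and 373, with 24 for no filter and 94 without nth-1 (0 to 195). The 0 of nth-1 became 1399 and 4285 (0 to 5318). DESeq2 gave 147, 91, 53 and 9 genes for temperature, aggregate tau on 4 backgrounds, anti-aggregate tau and ung-1, where edgeR gave 0 (without nth-1, 2 for temperature and 1 for aggregate tau). Total counts moved the median of all genes by 0.2 for aggregate tau on wild type, -0.26 for its difference and -0.23 within aggregate tau. Of 85 matched ratios 1 with an interval that left out 1 turned, ftn-2 with aggregate tau over no tau in wild type at 22 °C, to a log2 ratio of 0.01 with total counts. Of the 15 nearest genes 10 were found again with a pseudocount of 0.25 and 6 with 5. With coding length mtl-2 stood at 423 CPM per kilobase and ftn-2 at 294, in place of 231 and 230. Background, a term of both fits, matches the tau states within each background. The labels give no replicate numbers, so no fit with a replicate number as a block was run. The cause of these shifts was not tested. At 20 °C the depth limits mtl-1, read from 4 to 54 counts.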
